A study of Mus musculus with 8 samples.

Results

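Synaptotagmins are membrane proteins of vesicles and of the plasma membrane that carry a pair of C2 domains facing the cytosol. In several members these domains bind calcium, and the bound protein then acts on the SNARE proteins and on membrane lipids to drive vesicle fusion. Members differ in calcium affinity and speed, so that nerve terminals use different ones for fast, synchronous release and for slower, asynchronous release, while some members have lost calcium-binding residues and act in vesicle traffic. The genes described here are 10 synaptotagmins, Syt1, Syt2, Syt3, Syt4, Syt5, Syt7, Syt9, Syt10, Syt11 and Syt13, found by matching their symbols in GENCODE vM21 to the Ensembl identifiers of a table of 39017 genes. All 10 were found in the table and all 10 passed the filter on low counts, which kept 17654 genes. The list leaves out 7 other synaptotagmins, Syt6, Syt8, Syt12, Syt14, Syt15, Syt16 and Syt17, whose values are given for comparison. The genes were chosen by symbol, as fast and slow calcium sensors of release, and no cutoff on a measured value enters the choice; but the list was drawn up with the cKO and WT values of these libraries known, so the differences between groups below are a description of the libraries and not independent evidence.

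The libraries hold mouse hippocampal RNA from translating ribosome affinity purification, in which ribosomes carrying an EGFP-tagged L10 protein are pulled down with the RNA they hold. The conditional knockout (cKO) group has 5 libraries, from mice carrying the CCK cre driver, the L10-EGFP transgene and SMARCA3 fl/fl, that is both copies of the gene for the chromatin remodeller SMARCA3 (Hltf) floxed. The wild-type (WT) group has 3, from littermates that lacked the homozygous floxed allele. Each library pooled 4 hippocampi, and whether a mouse contributed to more than 1 pool, its age and its sex are not given in the sources used here, so p-values measure the spread between pools, which may be technical. The driver tags cells that express or once expressed Cck, which in the hippocampus includes glutamatergic neurons beside CCK interneurons. In these RNA preparations fewer cells of a type and less RNA per cell cannot be told apart.

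Total counts ran from 31760155 to 61823651 in cKO libraries and from 37239119 to 49522676 in WT libraries. Levels are given as CPM, a count scaled to the size of its library, with totals adjusted by the trimmed mean of M-values (TMM). Hltf, the targeted gene, was at 5.10, 4.49, 4.21 and 2.83 CPM in cKO 1 to 4 and at 11.4 CPM in the library labelled cKO 5, against 13.7, 8.39 and 9.87 CPM in WT 1, 2 and 3. The library labelled cKO 5 thus goes against its label at Hltf, and log2 fold changes without it are given for the 10 synaptotagmins. Transcripts of glutamatergic neurons were abundant, with a summed level of 7 markers of 8090 to 12200 CPM in cKO libraries and 7540 to 8040 CPM in WT libraries. Camk2a, a kinase subunit of excitatory neurons, made up 78.8 to 82.7% of this sum in cKO libraries and 77.6 to 79.1% in WT libraries. The 6 other markers summed to 1545 to 2107 CPM in cKO libraries and 1580 to 1707 CPM in WT libraries, which overlap. Of the 7 markers, 4 had a log2 fold change above 0 and 3 below 0. The groups did not overlap for 3 of the 7, all higher in cKO (3.38% of all genes). They were Slc17a7 (log2 fold change 0.49), Cpne6 (0.36) and Camk2a (0.32). The 8 markers of hippocampal CCK interneurons summed to 737 to 1010 CPM in cKO libraries and 574 to 807 CPM in WT libraries, and Cck made up most of this sum at means of 661 CPM in cKO and 540 CPM in WT. Of these 8 markers, 4 had a log2 fold change above 0 and 4 below 0, with a median of -0.16. The 10 oligodendrocyte markers summed to 83.8 to 107 CPM in cKO libraries and 71.4 to 75.8 CPM in WT libraries. All 10 had a log2 fold change above 0 (53% of all genes), with a median of 0.815. The groups did not overlap for 3 of the 10, all higher in cKO (3.38% of all genes). The oligodendrocyte sum, and the glutamatergic sum with Camk2a in it, were above all WT libraries in all 5 cKO libraries, and their part in the results below was not tested. Astrocyte markers (8 genes) summed to 27.0 to 31.3 CPM in cKO and 20.7 to 34.3 CPM in WT, with 1 gene at 0 counts in some library. The 8 microglial markers summed to 7.86 to 14.1 CPM in cKO and 10.5 to 17.6 CPM in WT, and the 8 vessel markers to 1.18 to 4.65 CPM in cKO and 1.32 to 2.45 CPM in WT, with 4 genes of each list at 0 counts in some library. The 8 GABAergic markers summed to 137 to 222 CPM in cKO and 168 to 216 CPM in WT.

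Levels of different genes were compared per length, as CPM per kilobase of merged exons. In both groups Syt1, the fast calcium sensor of most forebrain synapses, had the highest level, with 127.8 ± 9.77 CPM per kilobase in cKO (SD, n = 5) and 129.9 ± 1.96 in WT (SD, n = 3). Syt11, a member without full calcium binding, followed with 80.1 ± 6.81 CPM per kilobase in cKO and 69.2 ± 6.93 in WT, then Syt4 with 51.5 ± 12.2 in cKO and 52.3 ± 2.90 in WT. Syt5 (34.8 ± 4.48 in cKO, 32.2 ± 2.52 in WT) and Syt13 (27.0 ± 2.32 in cKO, 24.7 ± 3.72 in WT) came next. Syt7, the sensor known for asynchronous release, was at 16.1 ± 2.63 CPM per kilobase in cKO and 12.4 ± 1.44 in WT, and Syt3 at 13.5 ± 3.66 in cKO and 8.77 ± 1.17 in WT. The 3 lowest were Syt10 (2.20 ± 1.14 in cKO, 2.88 ± 1.01 in WT), Syt9 (2.25 ± 0.391 in cKO, 1.12 ± 0.433 in WT) and Syt2 (0.341 ± 0.101 in cKO, 0.933 ± 0.377 in WT). In WT the ranges of neighbours in this order did not overlap, apart from Syt9 and Syt2. In cKO they overlapped for Syt11 with Syt4, Syt5 with Syt13, Syt7 with Syt3, and Syt10 with Syt9, whose mean was the higher of the pair there. The order in WT was the same with the longest transcript as the length.

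**Figure D1:**
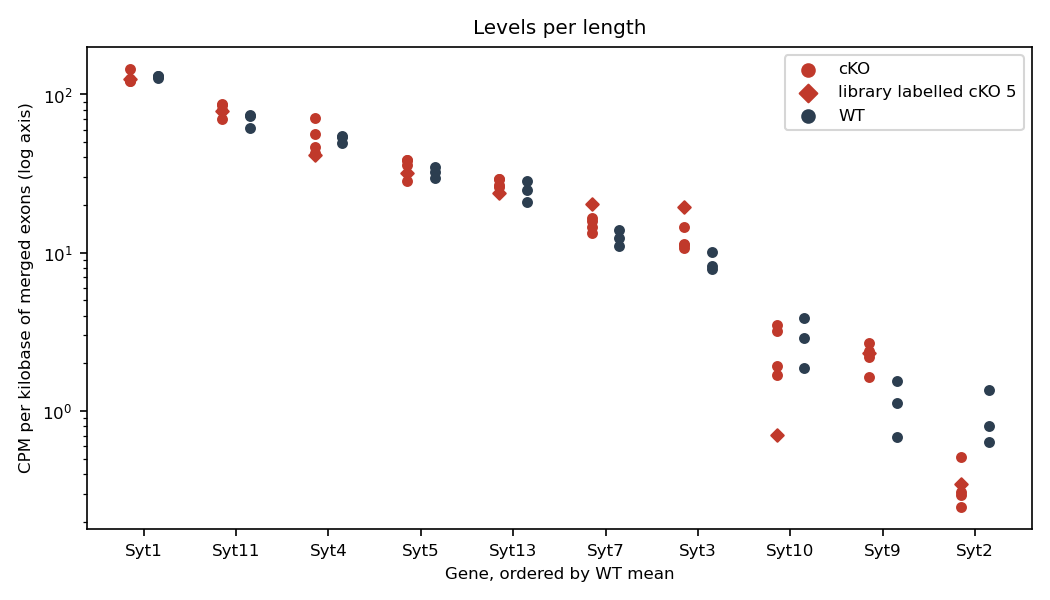
Level of each synaptotagmin per kilobase of merged exons (log axis, CPM per kilobase) in 5 cKO and 3 WT libraries, 1 point per library, with genes ordered by their WT mean. Syt1 lies highest at 121.6 to 145.0 in cKO libraries and 127.7 to 131.1 in WT libraries, and Syt2 lies lowest.

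As a share of the summed level per length of the 10 genes, Syt1 took 35.9 ± 1.64% in cKO (SD, n = 5) and 38.8 ± 0.429% in WT (SD, n = 3). Syt11 took 22.5 ± 1.23% in cKO and 20.7 ± 2.14% in WT, and Syt4 14.4 ± 2.45% in cKO and 15.6 ± 0.879% in WT. Fast sensors other than Syt1 contributed little, with 0.636 ± 0.125% for Syt9 in cKO and 0.335 ± 0.129% in WT, and 0.0966 ± 0.0319% for Syt2 in cKO and 0.279 ± 0.114% in WT. The summed CPM of the 10 genes was 2266, 1925, 1953 and 2077 in cKO 1 to 4 and 2007 in the library labelled cKO 5, against 1948, 1942 and 1972 in WT 1, 2 and 3.

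Setting cKO against WT addresses which synaptotagmin RNAs on tagged ribosomes differ when SMARCA3 is deleted in these cells. It was fitted with edgeR's quasi-likelihood test across all 17654 genes, two-sided, with Benjamini-Hochberg adjustment and an adjusted p under 0.05 as the threshold. Of the 10 synaptotagmins, 0 passed in either direction, as did 0 of all genes (0%). Unadjusted edgeR p-values were under 0.05 for 4 of the 10 (8.72% of all genes). Of these Syt9, Syt3 and Syt7 were the 3 higher in cKO (5.02% of all genes), and Syt2 the 1 lower (3.7% of all genes). DESeq2 gave an adjusted p for 8 of the 10 synaptotagmins and none for Syt2 and Syt10. It called 1 of those 8, Syt9, higher in cKO (0.789% of the 10893 genes with an adjusted p) and 0 lower (0.523%). In simulated data DESeq2 also called 46 of 17454 unchanged genes, where edgeR called 11. The unadjusted DESeq2 p of Syt2 was 2.9e-05 and that of Syt9 0.000653. limma-voom called 0 of the 10 higher (0.017% of all genes) and 0 lower (0.00566%). The groups did not overlap for 3 of the 10 synaptotagmins (7.19% of all genes). They were Syt9 and Syt3, the 2 higher in cKO (3.38% of all genes), and Syt2, the 1 lower (3.82% of all genes). The median log2 fold change of the 10 was 0.12 and that of all genes tested was 0.02. Syt2, with an adjusted p of 0.480 by edgeR, had the lowest adjusted p of the 10.

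**Figure D2:**
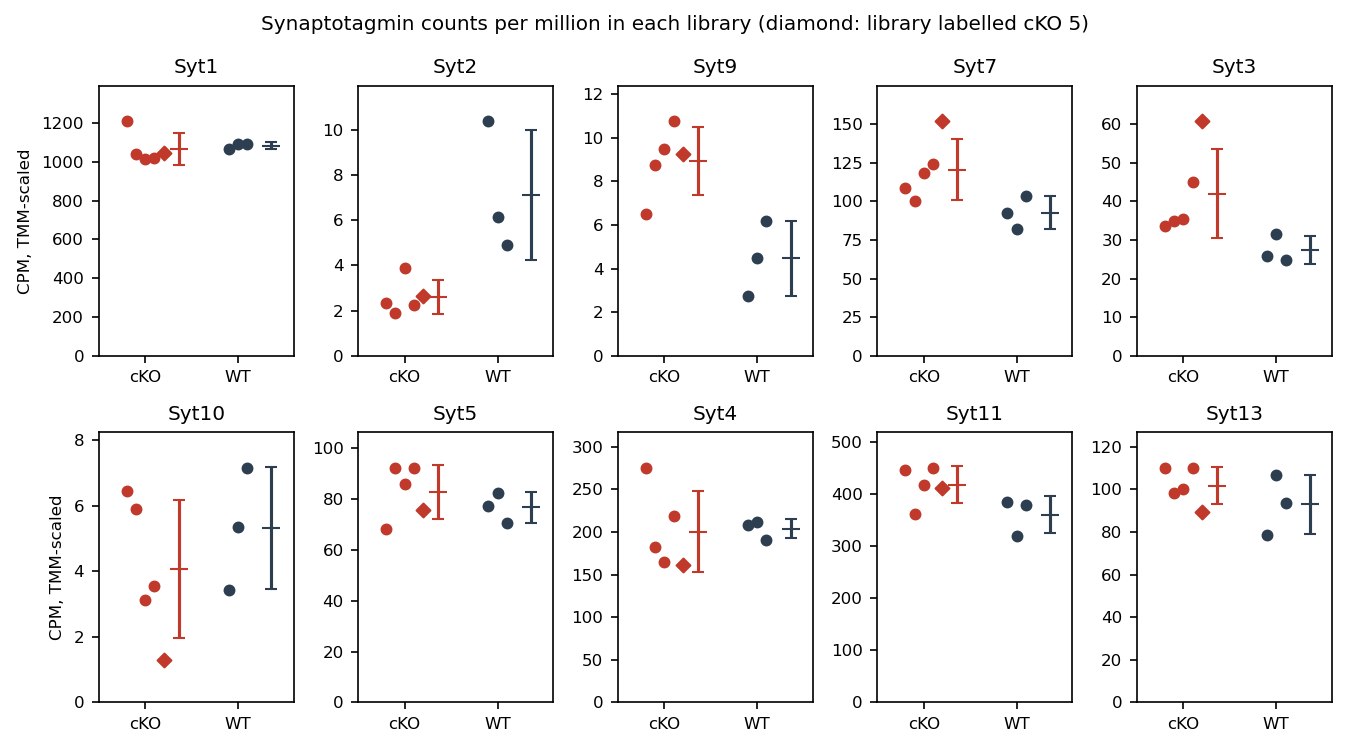
CPM of each synaptotagmin (linear axes from 0, 1 panel per gene) in 5 cKO libraries and 3 WT libraries; points are libraries, diamonds the library labelled cKO 5, and bars the mean and SD. Syt2 lies below all WT libraries in all 5 cKO libraries, and Syt9 and Syt3 lie above all WT libraries in all 5.

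The promoters of the 3 genes without overlap between groups are shown because they are the stretches that drive transcription of those genes. Windows of 300 bases, 250 before and 50 after a transcription start, came from RefSeq (GRCm38.p6, the assembly of mm10), and capitals mark the GC box GGGCGG or its reverse complement CCGCCC. A window was found for 6 of the 10 genes. The first Syt2 window is chr1:134646362-134646661, on the plus strand, and the second chr1:134709050-134709349, on the plus strand; that of Syt9 is chr7:107370540-107370839 and that of Syt3 chr7:44383876-44384175, both on the plus strand.
Syt2 upstream start: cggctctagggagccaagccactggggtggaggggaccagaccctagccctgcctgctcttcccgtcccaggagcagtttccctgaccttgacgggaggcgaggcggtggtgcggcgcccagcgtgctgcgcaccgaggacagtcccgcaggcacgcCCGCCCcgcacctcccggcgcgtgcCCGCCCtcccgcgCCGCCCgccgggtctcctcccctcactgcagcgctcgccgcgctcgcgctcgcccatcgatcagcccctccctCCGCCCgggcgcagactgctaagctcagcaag
Syt2 downstream start: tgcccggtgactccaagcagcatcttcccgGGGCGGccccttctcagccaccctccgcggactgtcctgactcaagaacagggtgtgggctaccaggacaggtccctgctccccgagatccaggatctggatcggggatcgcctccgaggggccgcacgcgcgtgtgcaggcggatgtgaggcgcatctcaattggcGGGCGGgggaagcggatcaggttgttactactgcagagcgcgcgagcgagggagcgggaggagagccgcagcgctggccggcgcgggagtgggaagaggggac
Syt9: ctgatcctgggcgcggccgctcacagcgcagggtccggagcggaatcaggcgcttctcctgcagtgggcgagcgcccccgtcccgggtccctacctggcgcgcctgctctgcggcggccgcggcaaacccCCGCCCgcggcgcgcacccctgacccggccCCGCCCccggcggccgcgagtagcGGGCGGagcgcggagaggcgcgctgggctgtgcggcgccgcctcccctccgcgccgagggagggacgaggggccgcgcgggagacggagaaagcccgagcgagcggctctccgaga
Syt3: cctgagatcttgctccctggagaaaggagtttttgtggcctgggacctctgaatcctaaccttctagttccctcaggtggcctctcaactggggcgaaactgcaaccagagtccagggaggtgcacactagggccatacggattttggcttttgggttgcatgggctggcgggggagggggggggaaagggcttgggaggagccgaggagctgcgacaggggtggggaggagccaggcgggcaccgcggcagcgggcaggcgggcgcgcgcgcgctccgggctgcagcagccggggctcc

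A GC box stands in 35.7% of all 32851 windows. The upstream Syt2 window held 4, the downstream one 2, the Syt9 window 3 and the Syt3 window 0. The cyclic AMP response element TGACGTCA, which stands in 1.79% of all windows, and the E-box CAGCTG, in 16.3%, were searched on both strands and had 0 matches in these 4 windows. CpG dinucleotides numbered 34 and 28 in the Syt2 windows, 49 in the Syt9 window and 17 in the Syt3 window, against a median of 7 over all windows. Windows were also found for Syt10, Syt11 and Syt1, whose groups overlapped. The Syt10 window held 3 GC boxes and 35 CpG, and the Syt11 window 2 GC boxes and 14 CpG. The Syt1 windows held 1 and 0 GC boxes, with 8 and 6 CpG. GC boxes and many CpG are thus not particular to the genes without overlap. These matches describe the letters and say nothing of which factor binds there.

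Among the fast sensors, Syt1 (chromosome 10, 108497650 to 109010982, mm10) was at 1209, 1039, 1014 and 1020 CPM in cKO 1 to 4 and 1044 CPM in the library labelled cKO 5, against 1065, 1093 and 1092 CPM in WT 1, 2 and 3. The 4 cKO libraries other than cKO 1 lay below the WT libraries and cKO 1 lay above them. The log2 fold change was -0.02 (SE 0.08, 95% interval -0.20 to 0.16, edgeR adjusted p 0.962), -0.02 without the library labelled cKO 5 and -0.07 without cKO 1. Its group means were 1065 ± 81.5 CPM in cKO (SD, n = 5) and 1083 ± 16.4 CPM in WT (SD, n = 3).

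Syt2, whose protein is the fast sensor at hindbrain synapses and marks terminals of parvalbumin basket cells in cortex and hippocampus, was at 2.36, 1.89, 3.90 and 2.25 CPM in cKO 1 to 4 and 2.63 CPM in the library labelled cKO 5. It was at 10.4, 6.12 and 4.89 CPM in WT 1, 2 and 3. All 5 cKO libraries lay below all 3 WT libraries, and the counts behind these levels were 97 to 125 in cKO libraries and 237 to 390 in WT libraries. The log2 fold change was -1.45 (SE 0.33, 95% interval -2.19 to -0.72), which is a level 2.74-fold higher in WT, with an edgeR adjusted p of 0.480. It was -1.46 without the library labelled cKO 5, and -1.08 without WT 1, the WT library with the highest level. The gene (chromosome 1, 134646677 to 134762593) overlaps Ppp1r12b, which encodes a regulatory subunit of myosin phosphatase, on the opposite strand. Strand use in the counting is not given in the sources used here, so reads of the pair cannot be fully separated. Ppp1r12b had 2182 to 4669 counts in cKO libraries and 2445 to 3429 in WT libraries, with a log2 fold change of 0.13 (edgeR adjusted p 0.756).

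Markers of parvalbumin interneurons, the cells in which Syt2 is best known in this tissue, are given beside it. Of 7 markers, 0 passed the test in either direction, and their summed level was 168 to 212 CPM in cKO libraries and 141 to 189 CPM in WT libraries. Their median log2 fold change was 0.21, and Pvalb itself, a calcium-binding protein, was at means of 1.72 CPM in cKO and 1.21 CPM in WT. Kcnc1, a potassium channel of fast-spiking cells, was at 114 CPM in cKO and 98.5 CPM in WT. Kcnc2 was at 45.4 to 68.0 CPM in cKO libraries and 47.9 to 56.4 CPM in WT libraries, and with Kcnc1 it made up most of the sum. The level of Syt2 was lower in cKO while the sum of these markers was not. That sum describes Kcnc1 and Kcnc2 more than Pvalb, so it cannot show whether RNA of parvalbumin interneurons differed. The share of Syt2 that comes from such cells was not tested.

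Syt9 is the remaining fast sensor, known from limbic neurons and from endocrine cells, and older literature swaps its name with Syt5. It was at 6.49, 8.73, 9.48 and 10.8 CPM in cKO 1 to 4 and 9.24 CPM in the library labelled cKO 5, against 2.74, 4.48 and 6.18 CPM in WT 1, 2 and 3. The groups did not overlap, although cKO 1, the lowest cKO library, lay close above WT 3, the highest WT library. The fold was 2.0 (log2 1.0, SE 0.29, 95% interval 0.35 to 1.64), with an edgeR adjusted p of 0.499; DESeq2 gave an adjusted p of 0.0498, just under the threshold. Leaving out the library labelled cKO 5 gave a log2 fold change of 0.98, and leaving out WT 1 gave 0.74. Counts of Syt9 were 304 to 546 in cKO libraries and 103 to 300 in WT libraries. Per length, Syt2 stood at 10.9 to 21.4% of the level of Syt9 in cKO libraries, against 197, 71.1 and 41.2% in WT 1, 2 and 3.

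Among the members with slower or high-affinity calcium binding, Syt7 (chromosome 19, 10389090 to 10453180), which drives asynchronous release and facilitation, was at 108.8, 100.02, 118.0 and 124.1 CPM in cKO 1 to 4 and 151.8 CPM in the library labelled cKO 5. It was at 92.2, 82.2 and 103.7 CPM in WT 1, 2 and 3. Of the cKO libraries 4 lay above all WT libraries, and cKO 2 lay below WT 3. Syt7 had a log2 fold change of 0.38 (SE 0.14, 95% interval 0.07 to 0.69), with an edgeR adjusted p of 0.522. It was 0.28 without the library labelled cKO 5, 0.23 over the 6 libraries without it and cKO 4, and 0.24 after correction for GC content and length.

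Syt3, a high-affinity member found at the plasma membrane and known in hippocampal neurons for AMPA receptor internalisation, was at 33.7, 34.8, 35.5 and 45.1 CPM in cKO 1 to 4 and 60.7 CPM in the library labelled cKO 5, against 25.8, 31.5 and 24.7 CPM in WT 1, 2 and 3. The groups did not overlap, and the library labelled cKO 5 was the highest. The log2 fold change was 0.62 (SE 0.21, 95% interval 0.16 to 1.07), with an edgeR adjusted p of 0.499, and 0.44 without that library. Over the 6 libraries without it and cKO 4 it was 0.34, and after correction for GC content and length 0.45. The longest transcript of Syt3 had the highest GC content of the 10 genes, 59.2%, and Syt7 had 54.7%, whereas Syt4 had the lowest with 40.7%. Across the 14385 genes averaging 1 CPM or more, GC content and the log2 fold change were related with a Spearman's rho of 0.262; genes are not independent replicates. The part of GC content in the values of Syt3 and Syt7 beyond this correction was not tested. Both genes also overlap a gene on the opposite strand, so the limit on separating reads given for Syt2 holds here. For Syt3 it is 1700008O03Rik, with 167 to 399 counts in cKO libraries and 227 to 309 in WT libraries. For Syt7 it is Gm26859, with 10 to 34 counts in cKO libraries and 10 to 18 in WT libraries.

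Syt10, known for triggering release of insulin-like growth factor 1 in olfactory bulb neurons, was at 6.44, 5.90, 3.12 and 3.54 CPM in cKO 1 to 4 and 1.30 CPM in the library labelled cKO 5, against 3.43, 5.36 and 7.15 CPM in WT 1, 2 and 3. The groups overlapped, and the SD in cKO was 51.9% of the mean. Its log2 fold change was -0.39 (SE 0.46, 95% interval -1.39 to 0.62, edgeR adjusted p 0.868), an interval wide enough to hold differences of either sign. It was -0.17 without the library labelled cKO 5 and -0.05 over the 6 libraries without it and cKO 4. Leaving out a WT library gave -0.62 without WT 1 and -0.11 without WT 3, and leaving out cKO 1 gave -0.61. Syt5, a member of dense-core and synaptic vesicles, was at 68.1 to 92.3 CPM in cKO libraries and 70.5 to 82.5 CPM in WT libraries, with a log2 fold change of 0.11 (95% interval -0.17 to 0.39). It was 0.14 without the library labelled cKO 5, and it ranged from 0.05 without WT 3 to 0.17 without cKO 1.

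**Figure D3:**
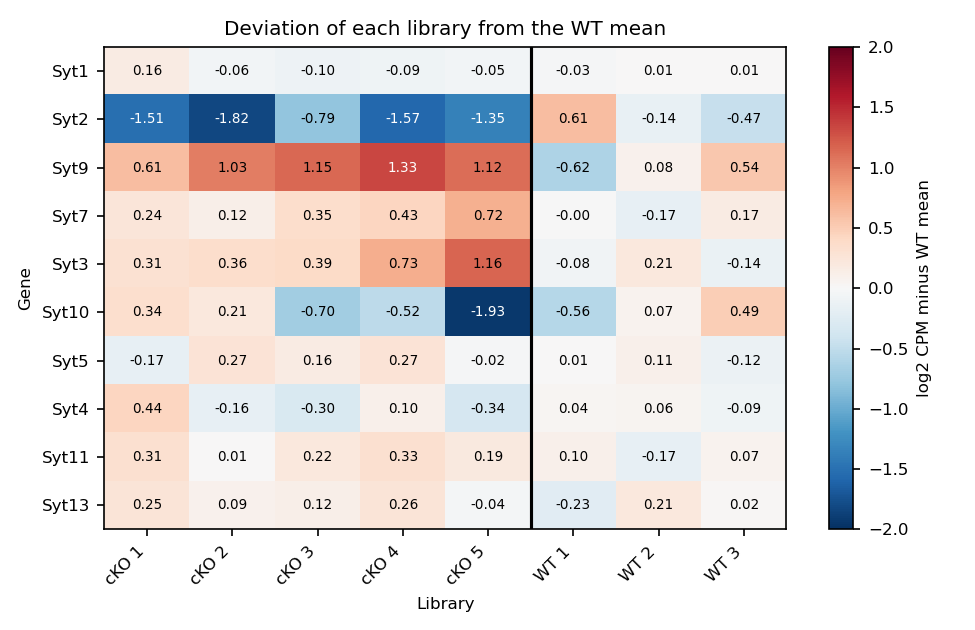
Difference of each library's log2 CPM from the WT mean (colour scale and printed number) for the 10 synaptotagmins, with cKO libraries left and WT libraries right of the line. Syt2 lies at -0.79 to -1.82 in the cKO libraries, Syt9 at 0.61 to 1.33, and Syt1 within 0.16 of 0 in all 8 libraries.

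The members with incomplete calcium-binding sites showed no value past the threshold. Syt4, a vesicle protein whose RNA is induced by neuronal activity, was at 275.4, 182.2, 165.2 and 218.5 CPM in cKO 1 to 4 and 161.3 CPM in the library labelled cKO 5, against 208.6, 211.6 and 190.7 CPM in WT 1, 2 and 3. The cKO libraries lay on both sides of the WT range, with an SD of 23.7% of the mean in cKO and 5.54% in WT. The log2 fold change was -0.02 (SE 0.17, 95% interval -0.38 to 0.34, edgeR adjusted p 0.982), and its sign depended on the setting: it was 0.04 without the library labelled cKO 5 and -0.16 without cKO 1. The gene Gm26658 lies on the opposite strand and overlaps Syt4, with 503 to 1055 counts in cKO libraries and 571 to 645 in WT libraries.

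Syt11, a close relative of Syt4 known as a brake on endocytosis, was at 445.9, 361.7, 417.4 and 450.1 CPM in cKO 1 to 4 and 410.6 CPM in the library labelled cKO 5. WT 1, 2 and 3 were at 384.3, 318.8 and 377.8 CPM. All cKO libraries but cKO 2 lay above all WT libraries, and the log2 fold change was 0.21 (SE 0.10, 95% interval -0.01 to 0.44, edgeR adjusted p 0.585). It was 0.21 without the library labelled cKO 5 as well, and it ranged from 0.13 without WT 2 to 0.26 without cKO 2. Syt13, a member without calcium binding, was at 89.4 to 110.2 CPM in cKO libraries and 78.6 to 106.6 CPM in WT libraries, with a log2 fold change of 0.13 (95% interval -0.14 to 0.40). It was 0.17 without the library labelled cKO 5, 0.02 without WT 1 and 0.24 without WT 2.

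Coding sequences of Syt1 and Syt2 were the most alike of the 45 pairs, identical at 77.6% of aligned bases, and the other pairs ranged from 60.8 to 71.8%. Only the pair of Syt2 and Syt7 shared a stretch of 36 bases between their annotated transcripts, 1 such stretch, so that an exact match of that length rarely falls in more than 1 member. Syt3, Syt5 and Syt9 lie on chromosome 7, and the others lie on chromosomes 1, 2, 3, 10, 15, 18 and 19.

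The 7 other synaptotagmins, of which 6 were tested, had a median log2 fold change of -0.35, and 0 passed by edgeR in either direction. Syt17, an atypical member of the family, was at 51.4, 50.7, 48.9 and 60.3 CPM in cKO 1 to 4 and 65.4 CPM in the library labelled cKO 5, against 35.9, 41.0 and 37.4 CPM in WT 1, 2 and 3. The groups did not overlap, and the log2 fold change was 0.54 (SE 0.13, 95% interval 0.25 to 0.83) with an edgeR adjusted p of 0.480. Syt6, which is known from the acrosome reaction of sperm, was at 4.48 to 15.7 CPM in cKO libraries and 16.1 to 21.2 CPM in WT libraries. Its log2 fold change was -0.64 (95% interval -1.35 to 0.06), and its lowest level was in the library labelled cKO 5. Of the 6 tested, Syt17 was the 1 higher without overlap between groups (3.38% of all genes) and Syt6 the 1 lower (3.82%). Syt16 was at 67.1 to 97.6 CPM in cKO libraries and 80.1 to 105.3 CPM in WT libraries, and Syt8 had 0 counts in all 8 libraries. Over all 17 synaptotagmins, 8 of the 16 tested had a log2 fold change above 0, where 53% of all genes did.

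**Figure D4:**
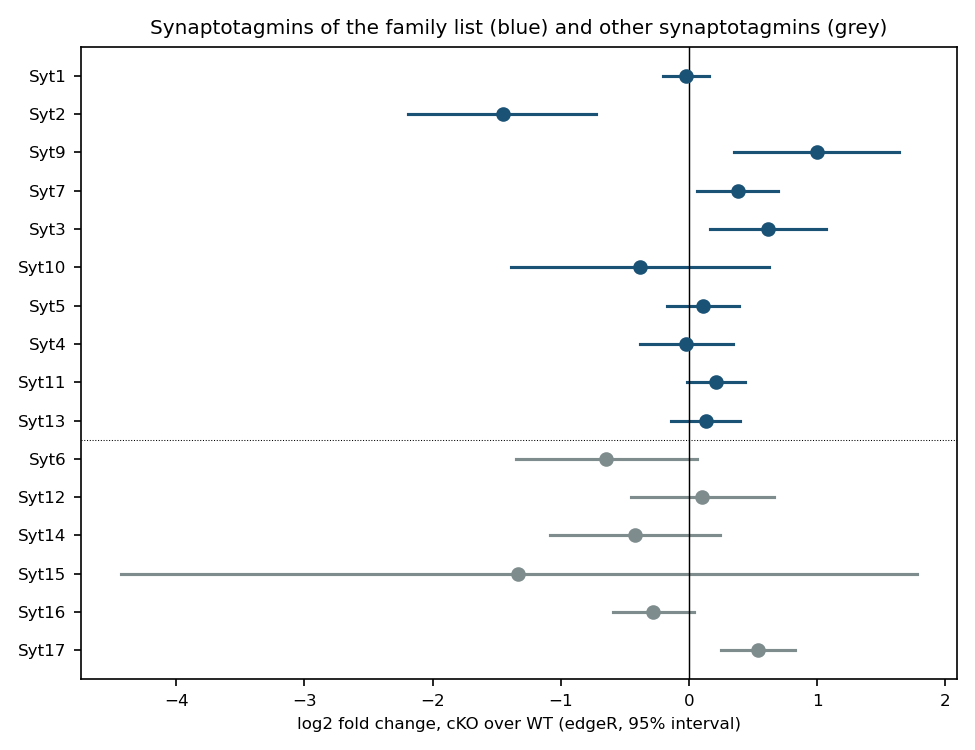
Log2 fold change of cKO over WT with its 95% interval (edgeR) for the 10 synaptotagmins (blue) and the 6 other synaptotagmins tested (grey). Intervals of Syt2, Syt9, Syt3, Syt7 and Syt17 do not include 0, and none of these genes passed after adjustment over all genes.

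Proteins that work with synaptotagmins were described by lists chosen for their roles. Of 23 SNARE and fusion partners tested, 0 passed, with a median log2 fold change of 0.06; 1 was higher (Snap23, 1.52) and 1 lower (Vamp4, -0.24) at an unadjusted edgeR p under 0.05. Cplx3, a complexin, was at means of 1.44 CPM in cKO and 2.68 CPM in WT, with an unadjusted edgeR p of 0.0941. Of the 23 it was the 1 lower in cKO with no overlap between groups (3.82% of all genes). Of 19 synaptic vesicle membrane proteins 0 passed (median 0.08), and 3 were higher at an unadjusted p: Syp, which encodes synaptophysin, at 524 CPM in cKO and 289 CPM in WT; Slc17a7, the vesicular glutamate transporter, at 484 CPM in cKO and 344 CPM in WT; and Scamp5, at 130 CPM in cKO and 111 CPM in WT. Of 14 calcium channels and active zone proteins 0 passed (median 0.01), and Cacna1a, the P/Q-type channel that triggers release, was at 101 CPM in cKO and 77.2 CPM in WT, while Cacnb4 was at 279 CPM in cKO and 327 CPM in WT. Of 15 endocytic adaptors 0 passed (median 0.08), and Ap2a1, a subunit of the AP-2 adaptor, was at 18.2 CPM in cKO and 13.1 CPM in WT, with Ston2, stonin 2, which binds synaptotagmin, at 5.90 CPM in cKO and 3.31 CPM in WT. Of 11 synaptotagmin-like and other double C2 proteins tested 0 passed (median 0.18) and 1 was higher at an unadjusted p, while Doc2b, a high-affinity calcium sensor, was at 282 CPM in cKO and 250 CPM in WT. The counts at an unadjusted edgeR p in these lists are read against 5.02% of all genes for higher and 3.7% for lower. Without overlap between groups, Syp and Slc17a7 were 2 of the 19 vesicle proteins and Ap2a1 1 of the 15 adaptors. All of these were higher in cKO (3.38% of all genes).

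Genes whose levels over the 8 libraries were most like Syt1, Syt7 and Syt4 were sought among 8198 protein-coding genes averaging 10 CPM or more, by the Pearson correlation of log2 CPM. For Syt1 they were Acsl3 (r 0.987, Spearman's rho 0.976), Rcn2 (0.976, 0.952) and Ulk4 (0.968, 0.905), and without cKO 1 and cKO 3, the libraries farthest from the median, r was 0.952, 0.987 and 0.883. For Syt7 they were Arl5b (0.991, 1.0), Cap1 (0.979, 0.976) and Rabl6 (0.975, 0.976), and without the library labelled cKO 5 and WT 2 r was 0.992, 0.942 and 0.927. For Syt4 they were Nus1 (0.978, 0.929), Gm12355 (0.961, 0.976) and Cacna1c (0.947, 0.976), and without cKO 1 and the library labelled cKO 5 r was 0.937, 0.886 and 0.950. These are the highest of 8198 correlations per gene over few libraries that share depth and group, and are given as a description with no test.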

How the data were processed

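RNA from tagged ribosomes of pooled hippocampi was sequenced in 5 cKO and 3 WT libraries, grouped by GEO's titles and genotype labels. The authors deposited raw counts per Ensembl gene, whole numbers without scaling. Per the submitters' processing notes, STAR 2.5.3a, HTSeq and mm10 were used; annotation release, strandedness and filters are not given in the sources used here. All 8 columns were used.

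Symbols (37693 of 39017 genes), positions and merged exon lengths came from GENCODE vM21. The fit used R 4.3.3 with edgeR 4.0.16 (filterByExpr, TMM, robust quasi-likelihood). limma 3.58.1 and DESeq2 1.42.0 were alternatives. The SE is the log2 fold change divided by the root of the F statistic. The fit was tested on simulated data. There edgeR called 5 of 50 genes changed 1.5-fold, 31 of 50 changed 2-fold and 40 of 50 changed 4-fold. It also called 11 of 17454 unchanged genes, where DESeq2 called 46 and limma-voom 4. By edgeR a change of 1.5-fold would thus mostly be missed. The simulation held many planted changes and treated all cKO libraries alike, without one that goes against its label. In these data 0 of all genes passed, and the lowest edgeR adjusted p was 0.088. Syt9, at a fold of 2.0, had an edgeR adjusted p of 0.499. The simulated rates for 2-fold and 4-fold changes may therefore be too high for these libraries. log2 CPM used a prior count of 2. Figures and promoters were handled with Python 3.11.15, matplotlib 3.10.9 and Biopython 1.88.

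The 10 genes and all lists were chosen with earlier results of these data known. Named genes are all 10, Hltf, up to 3 with the smallest p and a mean CPM of at least 1 from each other list, and the 3 genes most like Syt1, Syt7 and Syt4. Over all markers, 0 of the named cell type lists had a member past the threshold. Reads without molecular identifiers are not independent molecules, so counting precision covers counting error only.

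Library numbers 1 to 3 occur in both groups. Correlations of same-numbered deviations from the group mean were -0.105, 0.0296 and 0.0347 over 14629 genes. Pairs with different numbers were not set beside them, so they cannot show whether same-numbered libraries were prepared together. The main fit did not pair the libraries, and fits with the numbers as a replicate block are given below.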

Additional observations from a re-analysis of the deposited data

Results flagged for a closer look

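Among 21 sets of 5 cKO values (the CPM and the share per length of each of the 10 synaptotagmins, and their sum), 2 held a library far from the other 4, where chance marks about 1 in 20. Syt1 in cKO 1, at 1209 CPM against 1014 to 1044 CPM in the other cKO libraries, stood apart by a gap of 0.845 of the whole range. The share of Syt9 among the 10 genes per length in cKO 1, at 0.418% against 0.653 to 0.733% in the others, stood apart by a gap of 0.746 of the range. Both are in the same library, which also had the highest Syt4 level, 275.4 CPM, and the highest sum of the 10 genes, 2266 CPM. The sets are not independent, because each share is divided by the summed level per length of its library. That sum was 390.1 CPM per kilobase in cKO 1 and 335.9 to 368.9 in the other cKO libraries. The cause of both flags was not tested.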

How the results depend on the processing

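Over 19 alternatives for each of the 10 synaptotagmins, leaving out Syt2 and Syt10 by DESeq2, which gave them no adjusted p, 188 comparisons were made: 178 left direction and call as they were, 1 passed the threshold and 9 changed sign. Syt9 passed by DESeq2 (adjusted p 0.0498). The reversals were at values near 0, and the cause was not tested. Syt4 had a log2 fold change of 0.0203 over the 6 libraries other than cKO 4 and the library labelled cKO 5, without a replicate block, 0.0729 after the GC and length correction and 0.0281 with the replicate block and that correction. With a library left out Syt4 ranged from -0.164 to 0.0448, above 0 without WT 2, cKO 2, cKO 3 or the library labelled cKO 5. With the replicate block and the correction Syt1 had 0.0136 and Syt10 0.0241. Genes called higher and lower numbered 0 and 0 by edgeR, 2 and 0 without a filter, 2 and 0 with 3 libraries at 1 CPM or more, 86 and 57 by DESeq2, 3 and 1 by limma-voom, 5 and 5 over 6 libraries, 1 and 0 after the correction and 1 and 0 with the block and the correction. With a library left out they were 0 and 0. With the replicate block over 6 libraries they were 0 and 0, and of the synaptotagmins 0 passed. DESeq2 called 1 synaptotagmin higher and 0 lower; every other setting called 0 of them. An unadjusted p under 0.05 was found for 3 to 5 synaptotagmins in the settings run, and they were not always the same genes. After the GC and length correction the unadjusted edgeR p was 0.0515 for Syt7 and 0.0437 for Syt11. With the block and the correction it was 0.123 for Syt7, 0.0928 for Syt3 and 0.0476 for Syt11. The log2 fold change of Syt2 ranged from -1.67 to -1.08 and that of Syt9 from 0.74 to 1.30. That of Syt7 ranged from 0.16 to 0.47 and that of Syt3 from 0.27 to 0.73. The lowest values of Syt3 and Syt7 came with the replicate block and the correction. Hltf ranged from -1.36 to -0.70. At the depth of these libraries Syt2, Syt9 and Syt10 rest on 48 to 546 counts per library.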
